A study of Homo sapiens with 10 samples.

Results

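The BTG and TOB genes, a small family of inhibitors of cell proliferation, were followed in BJ cells kept on nutlin-3a. The family was taken as the 5 transcripts listed under the symbols BTG1, BTG2, BTG3, TOB1 and TOB2 in both the RNA-Seq and the Ribo-Seq table, out of 11258 transcripts that the tables share. All 5 were among the 7015 tested genes, those with 5 FPKM or more in 1 or more libraries of both assays. BTG2 met that minimum only through treated libraries, since its untreated levels were below it.

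BJ cells are human fibroblasts immortalized with telomerase (hTERT). The groups were an untreated control and cells given nutlin-3a, a small molecule that keeps MDM2 from binding p53 and thereby activates p53, for 2, 4, 6 or 19 h. Each group was measured by RNA-Seq of polyA RNA, which gives transcript levels, and by Ribo-Seq, which sequences the mRNA fragments covered by ribosomes. Every group held 1 library per assay, 10 in all, so differences have no replicate check, no test was possible, and the errors given (SE and 95% intervals) are those of counting reads alone. All groups shared the one cell line and its telomerase, and each assay had a single control, which all 4 times share.

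Proteins of this family share an N-terminal domain that binds the deadenylases CNOT7 and CNOT8 of the CCR4-NOT complex, the main enzyme complex that shortens mRNA poly(A) tails. TOB1 and TOB2 also carry motifs that bind the poly(A)-binding protein, and thereby bring the deadenylases to mRNAs. BTG2 is a known direct target of p53 and is also known as an early-response gene of growth factors and stress, whereas BTG1 is known for keeping lymphocytes quiescent.

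BTG2 was the member whose RNA and ribosome density rose most in the family, and the only one past 2-fold at any time. It went from the lowest level of the 5 genes in the control to the highest from 4 h on. TOB1 RNA was higher at each later time and reached 1.99 times its control at 19 h. TOB2 differed from its control more in ribosome density than in RNA, by more than counting error only at 6 and 19 h. BTG1 and BTG3 stayed within 2-fold in either direction. The tested subunits of CCR4-NOT did not pass 2-fold in RNA, and neither did most tested genes.

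The 250 bases before the transcription start of BTG2, BTG1 and TOB1 are shown because these genes had the largest change, a brief change and a gradual one. They are RefSeq sequences of build GRCh38.p14, and all 5 members had an entry. The windows are chr1:203305269-203305518 on the plus strand for BTG2, chr12:92145847-92146096 on the minus strand for BTG1 and chr17:50866355-50866604 on the minus strand for the GC-rich one of 2 TOB1 starts. Capitals mark letter matches to the consensus of the decamer that a p53 dimer binds, with at most 1 base departing from it on either strand.
BTG2: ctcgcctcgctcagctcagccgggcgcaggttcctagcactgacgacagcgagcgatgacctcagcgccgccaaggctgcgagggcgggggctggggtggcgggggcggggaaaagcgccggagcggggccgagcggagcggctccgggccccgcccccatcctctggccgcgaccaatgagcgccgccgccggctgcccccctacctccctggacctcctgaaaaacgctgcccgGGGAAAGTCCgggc
BTG1: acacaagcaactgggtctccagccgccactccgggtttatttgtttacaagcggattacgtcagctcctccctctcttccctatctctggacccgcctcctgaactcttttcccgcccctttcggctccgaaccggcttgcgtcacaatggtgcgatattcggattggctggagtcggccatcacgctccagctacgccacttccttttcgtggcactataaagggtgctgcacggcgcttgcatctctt
TOB1: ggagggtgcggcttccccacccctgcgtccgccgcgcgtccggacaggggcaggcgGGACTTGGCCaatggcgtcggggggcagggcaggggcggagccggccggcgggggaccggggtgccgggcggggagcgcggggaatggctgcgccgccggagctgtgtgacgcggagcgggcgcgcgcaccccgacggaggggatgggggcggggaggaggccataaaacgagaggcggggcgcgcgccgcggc
BTG2 held 1 such decamer, 14 to 5 bases before the start, with 1 mismatch. TOB1 held 1 at 194 to 185 bases before the start, also with 1 mismatch, and TOB2 held 1 at 119 to 110 bases in chr22:41446802-41447051 on the minus strand. BTG1, BTG3 and the other TOB1 start had no such match in their windows. Of 35116 promoter windows of the same length, 57.5% held a decamer with at most 1 mismatch and 5.57% held one with no mismatch, so the matches are common ones. CCAAT, found in 32% of windows on either strand, was present in BTG2 (76 to 72 bases before the start), BTG1 (87 to 83) and TOB1 (186 to 182, where it overlaps the p53 decamer). TGACG, the core of the cAMP response element, found in 21.2% of windows, occurred in BTG2 (210 to 206), in BTG1 at 192 to 188 and 110 to 106, and in TOB1 (87 to 83). TATAAA, found in 10.7% of windows, occurred in BTG1 alone of the 5 genes, at 33 to 28 bases before the start. These are matches of letters and no binding was measured.

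BTG2 (ENSG00000159388, transcript of 2712 nt) had RNA levels of 2.15, 12.6, 64.1, 50.5 and 54.4 FPKM in the control and after 2, 4, 6 and 19 h. All 4 treated libraries lay above the control, and the highest level was that of 4 h. The log2 changes to control were 2.56, 4.90, 4.56 and 4.66 in order of time. As folds these were 5.88 (95% counting interval 4.92 to 7.03), 29.8 (25.2 to 35.3), 23.5 (19.9 to 27.9) and 25.3 (21.4 to 30.0). The control level rested on 139 reads, which sets the width of these intervals. Among the 7015 tested genes BTG2 ranked 6th from the highest RNA change at 2 h, 2nd at 4 h and 1st at 6 and 19 h. At 2 h its control and treated levels were still both low, with 29.9% of tested genes below BTG2 at 2 h, against 85.2% at 4 h.

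Ribo-Seq of BTG2 gave 1.32, 10.1, 59.3, 41.8 and 47.9 FPKM in the control and at 2, 4, 6 and 19 h. Ribosome density, the Ribo-Seq level of a transcript, thus had the same order of times as RNA. Its folds over the control were 7.70 (5.58 to 10.6), 45.0 (33.2 to 61.1), 31.7 (23.3 to 43.2) and 36.4 (26.7 to 49.6), and the control rested on 42 reads. From 2 to 4 h alone, where both libraries had more reads, BTG2 RNA was 5.07-fold and its density 5.85-fold higher. From 4 to 6 h the RNA fell by 0.34 and the density by 0.50 on the log2 scale (SE 0.032 and 0.052).

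**Figure D1:**
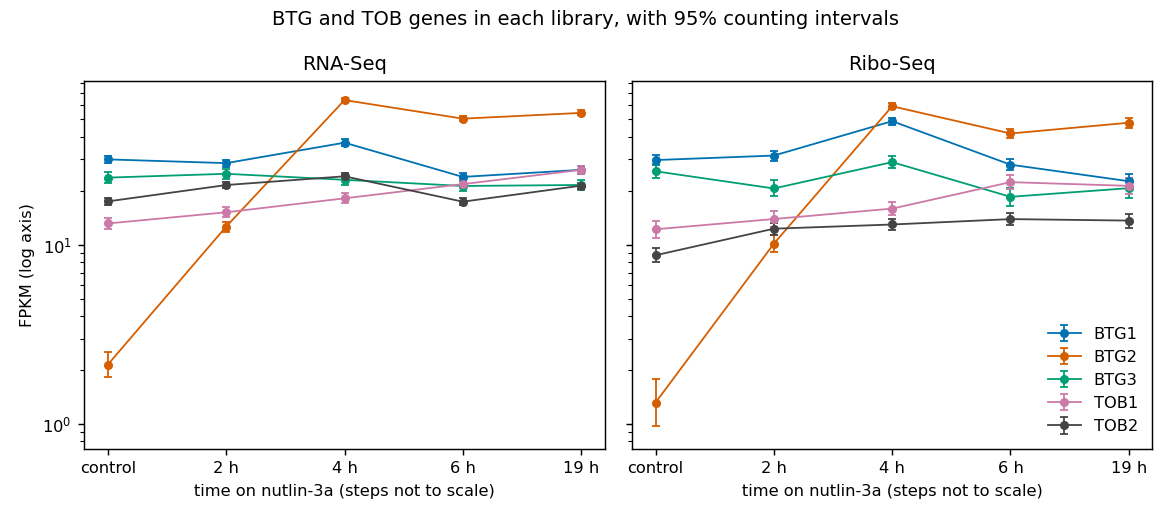
Level of each BTG and TOB transcript in FPKM on a log axis, by RNA-Seq (left) and Ribo-Seq (right) in untreated cells and after 2, 4, 6 and 19 h on nutlin-3a. Points are single libraries and bars 95% counting intervals. BTG2 starts lowest at 2.15 FPKM of RNA and lies above the other members from 4 h on, while the other members stay between 13.2 and 37.1 FPKM of RNA.

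TOB1 (ENSG00000141232, 2229 nt) had RNA levels of 13.2, 15.2, 18.2, 21.8 and 26.2 FPKM in the same order of libraries. Each library was higher than the one before it, and each of the 4 steps exceeded its counting interval, with log2 steps between 0.21 and 0.26. The log2 change to control was 0.21, 0.47, 0.73 and 0.99 (SE 0.066 at 19 h), so the last value lay just under 2-fold, at 1.99 (1.82 to 2.18). Relative to the median of tested genes that change was 1.06, just past 2-fold. At 19 h 97.4% of tested genes had a lower RNA change than TOB1.

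In Ribo-Seq TOB1 had 12.2, 13.9, 15.9, 22.4 and 21.3 FPKM. The log2 changes of density were 0.19 at 2 h, within the counting interval of 0, then 0.38, 0.87 and 0.80. The density did not differ between 6 and 19 h beyond counting (step -0.069, SE 0.099), whereas the RNA did. TOB1, a protein known to restrain growth of several cell types, thus had more RNA at 19 h than at 6 h without more ribosome density.

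TOB2 (ENSG00000183864, 4561 nt), the closest relative of TOB1, had 17.5, 21.5, 24.1, 17.4 and 21.4 FPKM of RNA. The treated libraries of 2, 4 and 19 h lay above the control, with log2 changes of 0.30, 0.47 and 0.29, and that of 6 h was level with it (-0.0055, SE 0.045). Its Ribo-Seq levels were 8.74, 12.3, 13.0, 13.9 and 13.6 FPKM. All 4 treated libraries were above the control, with density changes of 0.49, 0.57, 0.67 and 0.64 (SE between 0.083 and 0.094). From 2 h on, none of the density steps between neighboring times exceeded its counting interval.

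BTG1 (ENSG00000133639, 2448 nt) was the most abundant member in the control, with 29.9 FPKM of RNA, followed by 28.5, 37.1, 23.9 and 26.2 FPKM. The 4 h library was the highest and the 6 h library the lowest, with log2 changes of 0.31 (SE 0.046) and -0.32 (SE 0.050). In Ribo-Seq BTG1 had 29.7, 31.5, 48.9, 28.0 and 22.6 FPKM. Its density at 4 h was 1.65 times the control (1.52 to 1.79), a higher change than that of 93.6% of tested genes, and at 19 h it was 0.762 times the control (0.679 to 0.856). The density of all tested genes was also shifted, by a median of 0.10 at 4 h and -0.19 at 19 h, and relative to these shifts BTG1 changed by 0.62 and -0.20.

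BTG3 (ENSG00000154640, 1485 nt), also known as ANA, had the steadiest RNA of the family. Its levels were 23.7, 24.9, 23.0, 21.3 and 21.6 FPKM, and of the 4 log2 changes, which lay between -0.15 and 0.071, only that of 6 h exceeded its counting interval. In Ribo-Seq BTG3 had 25.7, 20.6, 28.9, 18.5 and 20.7 FPKM. The density was below the control at 2, 6 and 19 h by more than counting error, with log2 changes of -0.32, -0.47 and -0.31, and at 4 h it was within counting error (0.17, SE 0.089). Relative to the median of tested genes the 19 h change was -0.12 (SE 0.12), within counting error, and 43.0% of tested genes lay below it.

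For the family as a whole, 4 of 20 RNA changes (5 members at 4 times) were at least 2-fold higher, all of them BTG2, and none was at least 2-fold lower. Among all tested genes 0.927%, 1.41%, 1.75% and 2.49% were at least 2-fold higher in RNA at 2, 4, 6 and 19 h. The share at least 2-fold lower in RNA was 0.0143%, 0.684%, 5.39% and 7.1% at these times. Thus, 1 of 5 members was past 2-fold at every time against a few percent of tested genes, but that count is a single gene. BTG2 was among the tested genes only through its treated libraries, so the comparison with these shares favors it and is no test. The median RNA change of the 5 members was 0.21, 0.47, -0.0055 and 0.29, beside -0.045, -0.074, -0.0024 and -0.067 over tested genes.

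The count was the same for ribosome density, 4 of 20 higher, all BTG2, and none lower. The control Ribo-Seq level of BTG2 was also below the minimum, so the same limit holds. Of all tested genes 2.12%, 2.58%, 5.26% and 6.22% were at least 2-fold higher in density at 2, 4, 6 and 19 h, and 0.128%, 0.527%, 8.04% and 14.9% at least 2-fold lower. The members' median density change was 0.19, 0.57, 0.67 and 0.64, against 0.016, 0.10, -0.020 and -0.19 for tested genes. At 19 h BTG2, TOB1 and TOB2 had higher density than in the control, while BTG1 and BTG3 had lower density.

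**Figure D2:**
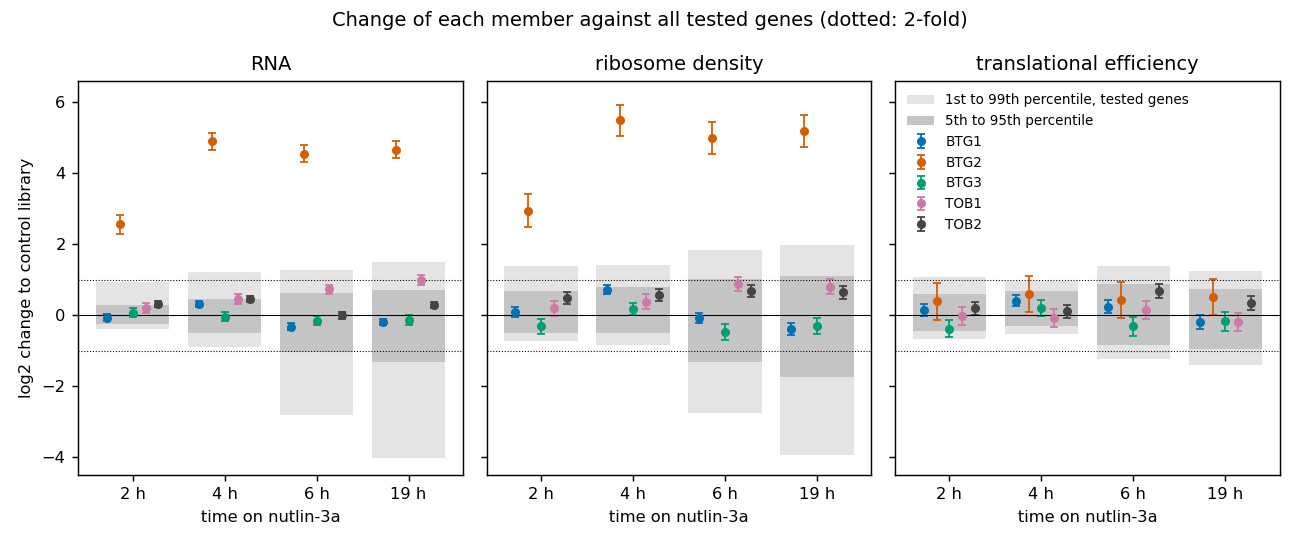
Log2 change of each member to the control library in RNA (left), ribosome density (middle) and translational efficiency (right) at 2, 4, 6 and 19 h, with 95% counting intervals. Dark and light gray bars span the 5th to 95th and the 1st to 99th percentile of 7015 tested genes, and dotted lines mark 2-fold. BTG2 lies above both bars in RNA and density at each time, and no member is past 2-fold in translational efficiency.

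Translational efficiency (TE), the log2 ratio of the Ribo-Seq to the RNA-Seq level, was then compared for each member. No member was past 2-fold in TE at any time, in either direction. Of all tested genes 1.14%, 0.87%, 3.21% and 1.94% had TE at least 2-fold higher at 2, 4, 6 and 19 h, and 0.057%, 0.128%, 2.54% and 4.21% at least 2-fold lower. The members' median TE change was 0.15, 0.21, 0.24 and -0.18, beside 0.045, 0.18, 0.0021 and -0.067 for tested genes, and changes in TE at 4 h include this shift of 0.18 over all genes.

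The TE of BTG2 was -0.71 in the control and -0.32, -0.11, -0.27 and -0.18 at 2, 4, 6 and 19 h. Its changes to control were 0.39, 0.59, 0.43 and 0.52, all positive, with an SE between 0.26 and 0.27 because of the 42 Ribo-Seq reads of the control. The 95% interval left out 0 at 4 h (0.089 to 1.10) and 19 h (0.016 to 1.03) but not at 2 and 6 h. Relative to the median of tested genes the change was 0.41 at 4 h, within its counting interval, and 0.59 at 19 h, beyond it. All of these changes share the same control reads, so their common sign is not independent between times. With a pseudocount of 1 FPKM in place of the floor the changes were 0.15, 0.33, 0.17 and 0.26. A floor of 5 FPKM sets both control values of BTG2 to the floor and its control TE to 0, so it says nothing of the TE change.

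The TE of TOB2 was the lowest of the family in the control and at each treated time, at -0.998, -0.81, -0.89, -0.32 and -0.65. BTG2 was at -0.71 (SE 0.25) in the control and -0.27 (SE 0.049) at 6 h. At these times TOB2 (SE 0.074 and 0.065) did not differ from BTG2 beyond counting. In the control 19.1% of tested genes were below TOB2. Its largest TE change, 0.68 at 6 h (0.48 to 0.87), came at the time when its RNA was level with the control and its density 1.59-fold higher, and at 19 h the change was 0.35 (0.15 to 0.55). The Ribo-Seq values were scaled to the same transcript length as those of RNA-Seq for the 4 members with a length from each table, and for TOB2 a length could be had from the Ribo-Seq table and from both tables together. The level of TE therefore also depends on how much of a transcript is coding.

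For BTG1 the TE was -0.012 in the control and 0.14, 0.40, 0.23 and -0.21 at the 4 times. The changes were 0.41 (0.26 to 0.56) at 4 h and -0.20 (-0.39 to -0.0054) at 19 h. BTG3 had TE values of 0.12, -0.27, 0.33, -0.20 and -0.059, going below the control at 2 and 6 h (changes -0.39 and -0.32) and not differing from it beyond counting at 4 and 19 h. At 2 h only 6.29% of tested genes had a lower TE change than BTG3. None of the 4 TE changes of TOB1, between -0.19 and 0.14, exceeded its counting interval.

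The order of levels within the family, all in FPKM, changed with time. In control RNA it was BTG1, BTG3, TOB2, TOB1 and BTG2, each step exceeding counting error, and TOB1 was 6.12 times BTG2. At 2 h the order was the same, with TOB1 now 1.20 times BTG2. At 4 h BTG2 led BTG1 by 1.73-fold and TOB2 and BTG3 did not differ beyond counting. At 19 h BTG2 was 2.08 times BTG1, with BTG1 and TOB1 alike at 26.2 FPKM, and BTG3 and TOB2 not differing beyond counting (21.6 and 21.4 FPKM). At 6 h the order was BTG2, BTG1, TOB1, BTG3 and TOB2, of which TOB1 and BTG3 did not differ beyond counting.

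In Ribo-Seq of the control the order was BTG1, BTG3, TOB1, TOB2 and BTG2, and each step exceeded counting error. At 2 h TOB1 and TOB2 were not distinguishable, and at 19 h neither were BTG1 and TOB1 nor TOB1 and BTG3. From 4 h on BTG2 was first and TOB2 last in this assay. At 4 h the lead of BTG2 over BTG1 was 1.21-fold, smaller than in RNA, and at 19 h it was 2.12-fold.

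The summed RNA level of the 5 genes was 86.4, 102.8, 166.6, 134.9 and 149.7 FPKM, from the control to the last time. BTG2 made up 2.49%, 12.3%, 38.5%, 37.5% and 36.3% of it. Without BTG2 the sum was 84.3, 90.2, 102.4, 84.4 and 95.3 FPKM, at most 1.22 times the control. In Ribo-Seq the sum was 77.7, 88.4, 166.0, 124.5 and 126.2 FPKM, and without BTG2 it was 76.3, 78.3, 106.7, 82.8 and 78.3 FPKM. The share of BTG1 in the summed RNA went from 34.7% in the control to 17.5% at 19 h although its own level was 0.875 times the control.

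**Figure D3:**
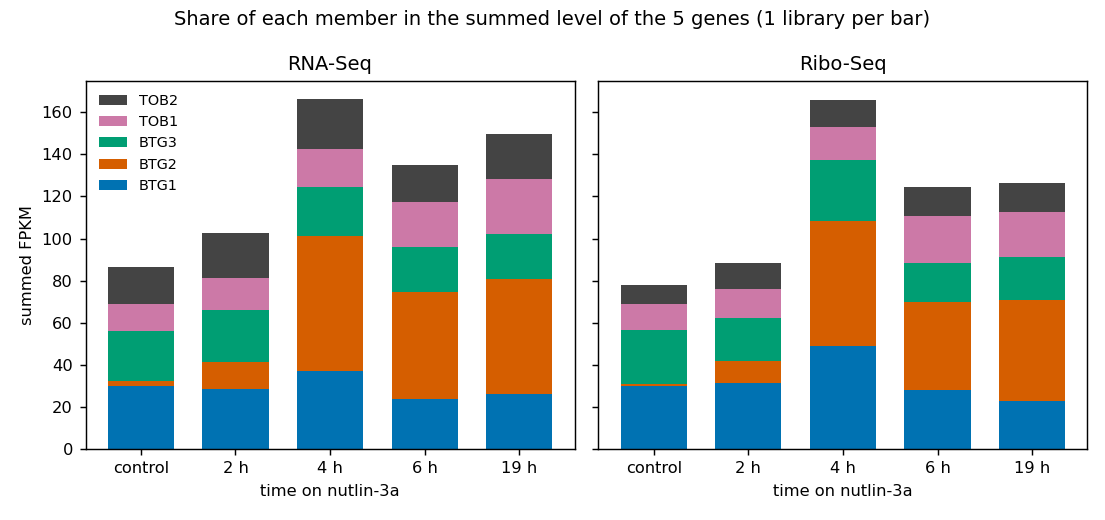
Summed FPKM of the 5 members in each RNA-Seq (left) and Ribo-Seq (right) library, split by member, with 1 library per bar. BTG2 is a thin band in the control (2.49% of the RNA sum) and 36.3% of the RNA sum at 19 h, and the sum of the other members is 84.3 FPKM in the control and 95.3 at 19 h.

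The machinery that these proteins act through was described from lists of genes. Of 12 listed CCR4-NOT subunits 9 were tested, and none was past 2-fold in RNA at any time. At 19 h 2.49% of all tested genes were at least 2-fold higher in RNA and 7.1% lower, so none among 9 is close to these shares. Their median RNA change at 19 h was -0.26, against -0.067 over tested genes. CNOT7, a deadenylase bound by BTG and TOB proteins, had 29.9, 30.5, 29.1, 30.1 and 25.1 FPKM of RNA and 5.58, 4.97, 5.38, 3.45 and 2.88 FPKM in Ribo-Seq. Its RNA was nearly level until 6 h, and its density change at 19 h was -0.96. CNOT8, the other such deadenylase, had RNA levels of 16.8, 15.3, 17.0, 15.1 and 15.9 FPKM, and a density change of -0.39 at 19 h.

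The larger RNA changes of the complex at 19 h were those of RQCD1 (now CNOT9, -0.85), CNOT10 (-0.70), the scaffold CNOT1 (-0.36) and CNOT3 (-0.27). In density at 19 h CNOT2 and CNOT10 were at least 2-fold lower and TNKS1BP1, a protein that associates with the complex, was at least 2-fold higher. That is 2 of 9 lower and 1 of 9 higher, beside 14.9% and 6.22% of all tested genes. The median density change was -0.75 for the 9 subunits, 0.64 for the 5 BTG and TOB genes and -0.19 for all tested genes.

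Of 12 other factors of poly(A) tails 8 were tested, and none passed 2-fold in RNA, as few of all tested genes did (2.49% higher and 7.1% lower at 19 h). At 19 h the poly(A)-binding proteins PABPC4 (-0.34) and PABPN1 (-0.29), the deadenylase subunit PAN3 (-0.20) and the poly(A) polymerase PAPOLA (-0.18) had the largest RNA changes. PAIP2, an inhibitor of the poly(A)-binding protein, was at least 2-fold lower in density at 19 h (-1.29, as were 14.9% of all tested genes) with RNA at -0.019; it was picked after its value was seen. Of 17 decapping and decay factors 15 were tested, of which 4 were at least 2-fold lower in RNA at 19 h (7.1% of all tested genes) and none higher (2.49%). These were LSM6 (-1.42), LSM5 (-1.29), LSM2 (-1.22) and LSM4 (-1.02), of the ring that binds shortened mRNA ends, and LSM proteins also serve in splicing.

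Of 17 RNA-binding proteins that recruit CCR4-NOT to mRNAs 6 were tested, and none passed 2-fold in RNA. At 19 h 2.49% of all tested genes were at least 2-fold higher in RNA and 7.1% lower, so none among 6 is close to these shares. ZFP36L1, which binds AU-rich elements, changed by 0.57 at 2 h, -0.63 at 6 h and 0.19 at 19 h, and SAMD4B and PUM2 by 0.15 and -0.26 at 19 h. Of 7 other partners of the family 3 were tested and none passed 2-fold in RNA, which is also close to the shares of all tested genes. PRMT1, an arginine methyltransferase bound by BTG1 and BTG2, had an RNA change of -0.58 at 19 h, the TGF-beta mediator SMAD4 of -0.10, and CCND1 (cyclin D1), which BTG2 and TOB1 are known to repress, of 0.21. CCND1 RNA was 388.6 FPKM in the control and between 438.7 and 482.5 FPKM in the treated libraries.

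BTG2 was set beside other p53-induced genes, listed as inhibitors of proliferation, which not all of them are. Of 12 listed 10 were tested, of which 5, 9, 8 and 8 were at least 2-fold higher in RNA at 2, 4, 6 and 19 h and none lower, with a median change of 0.91, 1.79, 1.99 and 2.02. The shares of all tested genes past 2-fold higher were 0.927%, 1.41%, 1.75% and 2.49%. The list was written with results of these data known and holds genes that the study names as p53 targets, so its direction is not independent evidence. SESN1, SESN2, TP53INP1 and PPM1D had 3.38, 4.53, 2.75 and 4.15 FPKM of control RNA, and ZMAT3 had 4.06 FPKM of control Ribo-Seq. These genes met the 5 FPKM minimum only through treated libraries, as BTG2 did. The counts of this list thus favor genes that rose. CDKN1A, which encodes the cell-cycle inhibitor p21, had 68.6, 212.3, 914.6, 1204 and 1316 FPKM of RNA. Its log2 change of 4.26 at 19 h was the nearest of the list to that of BTG2. TP53INP1 (3.54), SESN1 (2.74) and SESN2 (2.46) came next, and SESN2 was the one whose RNA change at 2 h, 1.99, was nearest to that of BTG2.

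Immediate-early genes, which answer to growth factors and stress within the first hours, were set beside BTG2 as well. Of 25 listed 20 were tested, and 8 were at least 2-fold higher in RNA at 2 h (JUNB, EGR1, EGR3, DUSP1, DUSP5, KLF10, NR4A1 and CTGF), against 0.927% of all tested genes. The other 12 were within 2-fold, and the median of the 20 was 0.96. In density 13 of 20 were at least 2-fold higher at 2 h, against 2.12% of all tested genes. At 4 h 1 was higher in RNA and 1 lower, beside 1.41% and 0.684% of all tested genes. At 6 h none was higher and 3 were lower, beside 1.75% and 5.39%. At 19 h 1 was higher (EGR3) and 3 were lower (KLF6, KLF2 and MYC, with changes of -1.30, -1.03 and -1.02), beside 2.49% and 7.1%. EGR3 RNA was 1.28, 27.2, 2.91, 1.65 and 2.69 FPKM from the control to 19 h. At 2 h BTG2 was thus past 2-fold together with 5 of 10 genes of the p53-induced list and 8 of 20 immediate-early genes. Some genes in these counts, SESN2 and EGR3 among them, met the 5 FPKM minimum only through treated libraries, as BTG2 did, so both counts favor genes that rose. After 2 h BTG2 RNA was 23.5-fold higher or more, when most immediate-early genes were within 2-fold of the control. The part of what moved those immediate-early genes in the BTG2 level of 2 h was not tested.

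**Figure D4:**
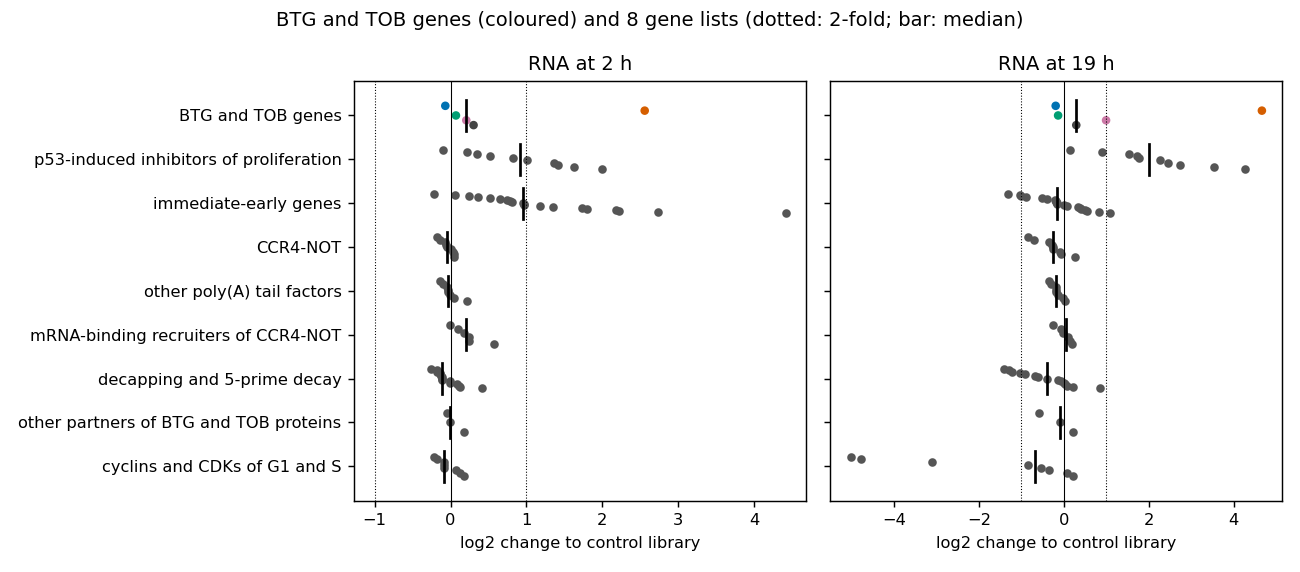
Log2 change of RNA to the control library at 2 h (left) and 19 h (right) for the BTG and TOB genes (colored as in the plot of levels) and for each tested gene of 8 lists, with bars at the median and dotted lines at 2-fold. The list labeled p53-induced inhibitors, not all of which inhibit proliferation, has medians of 0.91 and 2.02, and immediate-early genes have 0.96 and -0.17. BTG2 lies at 2.56 and 4.66.

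Of 15 listed cyclins, CDKs, E2F factors and RB family proteins of G1 and S phase 8 were tested. Of these, 3 were at least 2-fold lower in RNA at 6 and 19 h (5.39% and 7.1% of all tested genes), namely CCNA2, CDK2 and E2F1. CCNA2 RNA went from 55.6 FPKM in the control to 6.96 at 6 h and 1.72 at 19 h, and CDK2 RNA from 39.5 to 4.61 FPKM at 19 h. E2F1, a factor that BTG3 is known to bind, had 27.3 FPKM in the control and 0.66 at 19 h, which is below the floor of 1 FPKM. CDK4 had an RNA change of -0.83 at 19 h. At 2 h none of the 8 genes was past 2-fold, when BTG2 RNA was already 5.88-fold higher.

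The genes with the pattern most like each member were found from the Euclidean distance over 8 log2 changes (RNA and density at 4 times) among tested genes. For BTG2 they were GDF15 (distance 2.39), CDKN1A (2.74) and BBC3 (4.14), a secreted growth factor, p21 and a pro-apoptotic protein, all known p53 targets. These distances are large, and the GDF15 control RNA of 0.245 FPKM was raised to the floor, which understates its change. For TOB1 they were BLCAP (0.399), STAT3 (0.401) and BEX4 (0.401), with RNA changes at 19 h of 0.71, 0.70 and 0.87. For TOB2 they were TPBG (0.303), CREB3L2 (0.336) and ZCCHC3 (0.380), for BTG1 B4GALT5 (0.272), HMGA1 (0.352) and ETV4 (0.353), and for BTG3 FAM168B (0.280), TLK2 (0.281) and AUP1 (0.293). No member was among the 3 genes nearest to another member.

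The cells had RNA of 10 of 10 fibroblast markers in each library, with a summed level between 9365 and 12630 FPKM, highest at 19 h. Among markers of other cell types CDH1, VWF and PTPRC were at 0.246 FPKM or less in every RNA-Seq library. KRT18 (292.9 FPKM in the control), KRT8 (12.4) and CD68 (62.9) were present in these cells, the summed level of the 2 leukocyte markers measured went from 61.5 to 86.6 FPKM, and that of the 3 epithelial ones lay between 243.2 and 326.8 FPKM. Whether this bears on any member was not tested. The reads that the values were scaled to numbered between 23845600 and 27554300 in the RNA-Seq libraries, and between 7744900 (19 h) and 14460700 (4 h) in the Ribo-Seq libraries.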

How the data were processed

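RNA-Seq and Ribo-Seq were measured in 10 libraries of BJ cells. Following the methods and the submitters' processing notes, which name hg19, the authors used Bowtie to align reads to protein-coding transcripts of Ensembl release 65, 1 isoform per gene, keeping unique hits, so reads shared by paralogs were lost. The deposited values are FPKM with 3 decimals. Of the tables, the one whose name gives only ribosome profiling was taken as Ribo-Seq and the other as RNA-Seq. No per-sample column was left out.

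Whole reads, transcript lengths and library totals were worked out from the steps between FPKM values, for 99.8% of transcripts in both tables. The procedure was tested on simulated data. In a sample of the real transcripts, 1635 gave a length from each assay alone, and 81.3% of these gave the same length. The recovered reads gave counting errors (square root of the summed reciprocal reads, over the natural log of 2) and entered no test. PCR copies could not be told apart, so the errors are those of counting alone. As in the study, levels under 1 FPKM were set to 1, and log2 ratios were formed with the control library. A gene was called at a change of at least 2-fold. The study describes a batch effect between sequencing runs, and its comparisons were made within a run. Its list of libraries sets those of 6 and 19 h beside a control, and gives none of 2 and 4 h. No label says whether the control used here is that one, so the part of the run was not tested. Reads outside the coding sequence may be part of the Ribo-Seq values.

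The members and gene lists were chosen with earlier results of these data known. Named genes were all members, the up to 4 tested genes per list with the largest RNA change at 19 h plus CNOT7 and CNOT8, and the 3 tested genes nearest to each member; 1 gene that this rule names is not reported here. TNKS1BP1, CNOT2, PAIP2, PPM1D, ZMAT3 and the immediate-early genes higher at 2 h were named after their values were seen. Alternatives were another floor, a pseudocount, another baseline, centering, removal of a length trend, other thresholds (a sliding cut-off of 2 local SDs over 200 genes among them) and other filters. Promoter windows are from RefSeq. Python 3.11.15, numpy 2.4.6, pandas 2.3.3 and matplotlib 3.10.9 were used.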

Additional observations from a re-analysis of the deposited data

Results flagged for a closer look

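BTG1 departed from its control in opposite directions at different times of treatment, each time by more than its 95% counting interval. In RNA the log2 change was 0.3097 at 4 h and -0.3245 at 6 h. In ribosome density it was 0.7206 at 4 h and -0.392 at 19 h, and in TE 0.4109 at 4 h and -0.1986 at 19 h. Relative to the median of tested genes the TE changes were 0.23 and -0.13 (SE 0.099), of which the latter lay within its counting interval, and the density changes were 0.62 and -0.20. These differences between times were not tested, since each time held 1 library per assay, and the times share 1 control library.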

How the results depend on the processing

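BTG2 was past the threshold in use in RNA and density under all 10 alternatives, at each time an alternative could give. Other filters and thresholds leave the changes of BTG2 as they were, so they are no check on its values. With a floor of 5 FPKM its density change at 2 h was 1.02, just past 2-fold, against 2.94. No member's change of 2-fold or more turned its sign. With a threshold of 1.5-fold, 9 in place of 4 density changes were called (BTG1 at 4 h, TOB1 and TOB2 at 6 and 19 h besides BTG2) and 2 in place of 0 TE changes (BTG2 at 4 h and TOB2 at 6 h). RNA calls numbered 6 with that threshold and 5 when centered on the median of tested genes, which added TOB1 at 19 h. The sliding cut-off gave 5 density calls (BTG1 at 4 h added). With the 2 h baseline there were 3 calls of 15 in RNA and in density. The RNA change of BTG2 at 19 h was 2.11 with the 2 h baseline, 3.44 with a floor of 5 FPKM and 4.14 with a pseudocount of 1 FPKM, against 4.66. Its TE changes stayed positive with a pseudocount (0.15, 0.33, 0.17 and 0.26), the 2 h baseline (0.20, 0.044 and 0.14), centering and the length trend removed. A floor of 5 FPKM sets its control TE to 0, so the negative values there (-0.32, -0.11, -0.27 and -0.18) are its treated TE levels. Of 285 changes of members recomputed, 239 stayed within the counting interval, 46 moved and 13 changed sign. A mean of at least 20 FPKM kept 3 of 5 members. No paired analysis was possible because every group held 1 library per assay. Depth limits BTG2 most, with 42 Ribo-Seq reads in the control.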
